A study of Homo sapiens with 12 samples.

Results

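SF539 cells, an established glioblastoma (GBM) cell line, were compared after transfection with either of 2 siRNAs against PARK2 and after transfection with a scramble siRNA, which has no intended target. The 6 SF539 arrays were taken by their labels from a series of 12 arrays, and the other 6 hold the same groups of a second glioma line, SNB19. The groups were SF539 with PARK2 siRNA1 (2 arrays), SF539 with PARK2 siRNA2 (2 arrays) and SF539 with scramble siRNA (2 arrays), all lipid-transfected and harvested 48 h later. RNA was read on 1-colour Affymetrix oligonucleotide arrays, and all values are on the log2 scale, so that a difference of 1 is a 2-fold change. No label says that the duplicates were separate cultures, and the p-values then describe the spread between these arrays alone, which may be technical. All arrays come from transfected cells, so a difference from scramble can lie on either side of the comparison. The level of PARK2 itself was not analysed here, and the knockdown was therefore not checked.

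PARK2 encodes parkin, an E3 ubiquitin ligase. The kinase PINK1 accumulates on damaged mitochondria and activates parkin, which then tags outer membrane proteins so that the organelle is taken up by autophagy. PARK2 is deleted or mutated in part of human gliomas, and parkin has been linked to the turnover of G1/S cyclins.

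In SF539 the mesenchymal markers VIM and CD44 averaged 13.5 and 12.2 over the PARK2 siRNA arrays and 13.6 and 12.6 over the scramble arrays, among the brightest of 8545 genes. The glial markers GFAP, S100B and OLIG2 averaged 3.78, 3.53 and 3.47 with the PARK2 siRNAs and 3.93, 3.80 and 3.61 with scramble, below the lower quartile of an average array (3.98), so the labelled glial identity had little signal from these genes. Other glioma and glial markers were brighter. With the PARK2 siRNAs SOX9, EGFR, CHI3L1 and SOX2 averaged 7.09, 7.96, 8.03 and 4.68, and with scramble 7.61, 8.34, 6.45 and 4.73. CHI3L1 ran from 6.30 to 12.04 over the arrays, and its PARK2 siRNA average was raised mostly by siRNA2 replicate 2. The 16 leukocyte, 9 endothelial and 13 epithelial markers measured were mostly dim, although the keratin gene KRT18 averaged 9.76 and 9.89. Their linear-scale sums ran from 322 to 344, 155 to 190 and 931 to 1539 over the PARK2 siRNA arrays, and from 309 to 344, 172 to 183 and 1271 to 1429 over the scramble arrays. PTPRC, the general leukocyte marker, was at 2.96 with the PARK2 siRNAs and 2.95 with scramble. Of the leukocyte list 1 gene rose, CSF1R by 0.56, of the epithelial list 1 fell, KRT8 by 0.37, and of the endothelial list 0 changed (1 lower at an unadjusted limma p under 0.05). The KRT8 call was lost without either scramble array (limma adjusted p = 0.123 and 0.0664) and without siRNA1 replicate 1 (0.0526). In bulk RNA, fewer cells of a type and less RNA per cell cannot be told apart.

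The second siRNA2 array stands apart from the first. Its values correlated with those of replicate 1 across genes with r = 0.991, against 0.998 for the siRNA1 pair and 0.995 for the scramble pair. The median SD between replicates was 0.132 for siRNA2 and 0.0636 for siRNA1, against 0.0852 for scramble. Between the siRNA2 replicates 232 genes differed by more than 1, between the siRNA1 replicates 2 and between the scramble replicates 49. Of the 232 genes, 168 were higher on siRNA2 replicate 2 and 64 lower. Results are therefore given array by array, and counts are also given without the doubted array.

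With the PARK2 siRNAs, the chemokine gene CCL2, fibrillar collagen genes and lipid synthesis genes rose in SF539, while ESM1, several neutrophil- and T-cell-attracting chemokine genes and IFNB1 fell. In the limma fit, 839 of 8545 genes passed at an adjusted p of 0.05, which is 9.82% of those tested, 496 higher (5.8%) and 343 lower (4.01%). All 4 PARK2 siRNA arrays lay above both scramble arrays for 478 of the called genes and below them for 335, while the arrays overlapped for the other 26. Over all genes the 4 arrays lay outside both scramble arrays for 28.2%. At least 2-fold changes numbered 79 up and 38 down, and at least 4-fold changes 11 up and 4 down. Centring each array on its median gave 873 calls, of which 46.0% were higher, against 59.1% of the calls on the deposited scale, and moved the median change of all genes from -0.02 to -0.06, so the balance of rises and falls rests on the scaling. The count was 1378 without siRNA2 replicate 2, 1973 without siRNA2 replicate 1, 371 and 466 without scramble replicate 1 or 2, and 488 and 461 without siRNA1 replicate 1 or 2. With the 6 SF539 arrays alone, where the spread is not shared with SNB19, 165 genes passed. Of the 40 leading genes 27 passed there, and the other 13 (COL1A1, VCAM1, COL1A2, ARG2, NID2, CCN5, IL24, CXCL3, CXCL10, BCL2A1, SLC22A4, FST and HMOX1) did not.

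**Figure D1:**
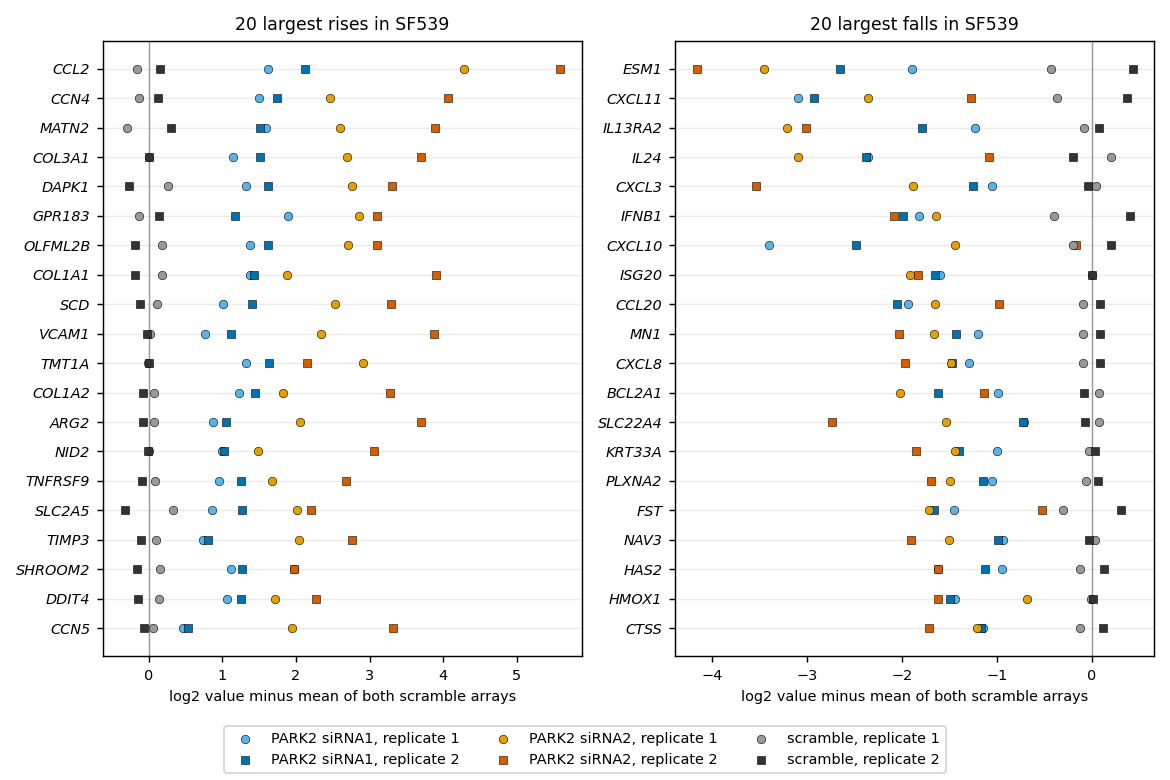
The 20 largest rises and 20 largest falls among the called genes on which both siRNAs had the same sign. Each point is 1 SF539 array, placed at its log2 value minus the mean of both scramble arrays, so the scramble points straddle 0. The PARK2 siRNA points lie clear of the scramble points for every gene but CXCL10, and for 19 of the 20 rises siRNA2 replicate 2 (dark orange squares) is the highest of the 6 arrays.

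The largest rise was that of CCL2, which encodes a chemokine that draws monocytes. CCL2 read 5.86 and 6.35 with siRNA1 and 8.52 and 9.82 with siRNA2, against 4.08 and 4.39 with scramble, so every PARK2 siRNA array was above every scramble array and the siRNA2 arrays were above the siRNA1 arrays. The change averaged 3.40 ± 0.29 (SE, limma adjusted p = 0.000204). GPR183, a receptor for oxysterols that guides immune cells, read 7.52 and 6.81 with siRNA1 and 8.49 and 8.73 with siRNA2, against 5.50 and 5.77 with scramble, a change of 2.25 ± 0.22 (adjusted p = 0.000403). TNFRSF9, a co-stimulatory receptor of the TNF receptor family, read 6.63 and 6.93 with siRNA1 and 7.34 and 8.35 with siRNA2, against 5.76 and 5.59 with scramble, a change of 1.64 ± 0.27 (adjusted p = 0.00564). For both receptors the groups do not overlap, and the siRNA2 pair is the higher one. VCAM1, the endothelial and stromal ligand of leukocyte integrins, read 6.20 and 6.54 with siRNA1 and 7.76 and 9.30 with siRNA2, against 5.45 and 5.40 with scramble, and its change of 2.03 ± 0.32 (adjusted p = 0.00462) lay mostly with siRNA2.

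Several of the other leading rises encode enzymes, transporters or regulators. DAPK1, a calmodulin-regulated kinase linked to cell death, read 7.25 and 7.56 with siRNA1 and 8.70 and 9.23 with siRNA2, against 6.19 and 5.67 with scramble, and the change was 2.25 ± 0.18 (adjusted p = 0.000142). The other DAPK1 probe set changed by -0.05, and the mean of both was 1.10. TMT1A, a thiol methyltransferase of the endoplasmic reticulum, was the 1 leading rise whose highest array was siRNA2 replicate 1, at 5.29 and 5.59 with siRNA1 and 6.87 and 6.11 with siRNA2, against 3.96 and 3.97 with scramble. Its probe sets ran from -0.29 to 2.00, with a mean of 0.60. ARG2, the mitochondrial arginase, read 4.47 and 4.64 with siRNA1 and 5.65 and 7.28 with siRNA2, against 3.66 and 3.51 with scramble, a change (1.17 over its probe sets on average) of 1.92 ± 0.33 whose call was lost without scramble replicate 2 (adjusted p = 0.0544, against 0.00706). SLC2A5, a fructose transporter, read 6.45 and 6.86 with siRNA1 and 7.61 and 7.79 with siRNA2, against 5.91 and 5.26 with scramble, and rose by 1.59 (0.85 over its probe sets on average). SHROOM2, an actin-binding protein, had nearly equal siRNA2 arrays, at 7.03 and 7.18 with siRNA1 and 7.89 and 7.89 with siRNA2, against 6.07 and 5.76 with scramble, and rose by 1.58 ± 0.15.

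The largest fall was that of ESM1, which encodes endocan, a secreted proteoglycan. ESM1 read 5.47 and 4.70 with siRNA1 and 3.90 and 3.20 with siRNA2, against 6.92 and 7.78 with scramble, with no overlap, and changed by -3.04 ± 0.28 (limma adjusted p = 0.000281). IL13RA2, a decoy receptor for interleukin 13 that many gliomas carry, read 5.12 and 4.56 with siRNA1 and 3.14 and 3.35 with siRNA2, against 6.27 and 6.43 with scramble, and the siRNA2 arrays were below the lower quartile of an average array. Its change was -2.31 ± 0.14 (adjusted p = 7.81e-05), and with signal that dim the size of the fall is bounded by background. MN1, a transcriptional co-regulator, read 5.37 and 5.13 with siRNA1 and 4.90 and 4.53 with siRNA2, against 6.47 and 6.65 with scramble, and fell by 1.58 ± 0.11. HAS2, a hyaluronan synthase, read 4.72 and 4.55 with siRNA1 and 4.05 and 4.05 with siRNA2, against 5.54 and 5.79 with scramble, and fell by 1.33 ± 0.10. PLXNA2, a semaphorin receptor, read 6.66 and 6.57 with siRNA1 and 6.22 and 6.02 with siRNA2, against 7.65 and 7.77 with scramble, and fell by 1.34 ± 0.09. For these 3 genes all 4 PARK2 siRNA arrays lay below both scramble arrays.

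HMOX1, the inducible haem oxygenase, read 10.60 and 10.54 with siRNA1 and 11.36 and 10.42 with siRNA2, against 12.03 and 12.04 with scramble, so siRNA2 replicate 1 was the PARK2 siRNA array nearest to scramble, and HMOX1 fell by 1.31 ± 0.20 (limma adjusted p = 0.00404). CTSS, a lysosomal cysteine protease, read 7.84 and 7.82 with siRNA1 and 7.77 and 7.26 with siRNA2, against 8.85 and 9.10 with scramble, and fell by 1.31 ± 0.13. SLC22A4, an organic cation transporter, read 8.89 and 8.88 with siRNA1 and 8.07 and 6.87 with siRNA2, against 9.68 and 9.54 with scramble, and its change of -1.43 ± 0.25 was lost without scramble replicate 1 (adjusted p = 0.0661). NAV3, a microtubule-binding navigator protein, fell by 1.33 on its brightest probe set, but its probe sets ran from -1.33 to 0.15 with a mean of -0.49. KRT33A, a hair keratin, read 4.71 and 4.30 with siRNA1 and 4.27 and 3.85 with siRNA2, against 5.67 and 5.73 with scramble, and fell by 1.42. BCL2A1, an inhibitor of apoptosis, read 6.13 and 5.51 with siRNA1 and 5.11 and 5.99 with siRNA2, against 7.20 and 7.04 with scramble. Its change of -1.44 ± 0.28 was lost without scramble replicate 1 or 2 (adjusted p = 0.0893 and 0.0555). FST, which encodes the activin-binding protein follistatin, read 7.78 and 7.57 with siRNA1 and 7.53 and 8.71 with siRNA2, against 8.93 and 9.54 with scramble, and its change of -1.34 ± 0.30 was lost without scramble replicate 2 (adjusted p = 0.163) or without siRNA1 replicate 1 or 2 (0.0507 and 0.0673).

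Genes for chemokines and cytokines, the secreted signals of inflammation, moved in both directions. Of 28 measured, 9 fell (CXCL11, IL24, CXCL3, IFNB1, CXCL10, CCL20, CXCL8, IL1B and CXCL2) and 2 rose (CCL2 and CSF1). Beside the counts of this and every later list, 5.8% of all genes were called higher and 4.01% lower. The list's median change was -0.30, against -0.02 over all genes, and was -0.12 without siRNA2 replicate 1 and -0.14 without scramble replicate 1. Between 5 and 13 members fell and between 2 and 5 rose when 1 array was left out, the fewest falls without scramble replicate 1 and the most without siRNA2 replicate 2, and 4 fell and 2 rose with the 6 SF539 arrays alone. CSF1, the growth factor of macrophages, read 9.88 and 10.15 with siRNA1 and 10.66 and 10.65 with siRNA2, against 9.36 and 9.29 with scramble, and rose by 1.01 ± 0.11 (limma adjusted p = 0.000533; 0.54 as the mean of its probe sets).

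CXCL8 and its relatives, which attract neutrophils, were lower on all 4 PARK2 siRNA arrays. CXCL8 read 10.19 and 10.01 with siRNA1 and 10.00 and 9.51 with siRNA2, against 11.39 and 11.57 with scramble, a change of -1.55 ± 0.14 (limma adjusted p = 0.000281). CXCL3 read 7.65 and 7.44 with siRNA1 and 6.81 and 5.16 with siRNA2, against 8.73 and 8.65 with scramble, so siRNA2 replicate 2 alone was far below the others, and its call (-1.93 ± 0.34, adjusted p = 0.00736) was lost without scramble replicate 1 (adjusted p = 0.0611). CXCL2, which resembles CXCL3 in sequence so that the probes may share signal, read 9.79 and 9.77 with siRNA1 and 9.61 and 8.45 with siRNA2, against 10.71 and 10.27 with scramble, and fell by 1.08 ± 0.27 (adjusted p = 0.0351). CCL20, a chemokine for dendritic and Th17 cells, read 4.68 and 4.57 with siRNA1 and 4.97 and 5.64 with siRNA2, against 6.53 and 6.71 with scramble, with the siRNA1 pair lower than the siRNA2 pair, and fell by 1.65 ± 0.18. IL1B, a master inflammatory cytokine, read 6.43 and 5.78 with siRNA1 and 5.34 and 5.62 with siRNA2, against 7.28 and 6.63 with scramble, and fell by 1.17 ± 0.22 (adjusted p = 0.0102). IL24, a cytokine of the interleukin 10 family, read 7.14 and 7.12 with siRNA1 and 6.40 and 8.41 with siRNA2, against 9.69 and 9.30 with scramble. Its change of -2.23 ± 0.44 was lost without scramble replicate 1 or 2 (adjusted p = 0.109 and 0.0547). IL1B lost its call without scramble replicate 1 (adjusted p = 0.102), and CXCL2 without either scramble array (0.237 and 0.0739) or either siRNA1 array (0.0802 and 0.088).

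The chemokines CXCL10 and CXCL11 and interferon beta are made in response to viral sensing and interferon. CXCL11 read 3.40 and 3.57 with siRNA1 and 4.13 and 5.23 with siRNA2, against 6.12 and 6.86 with scramble, so siRNA1 lay below siRNA2 and both below scramble, and the change was -2.41 ± 0.28 (limma adjusted p = 0.000841). CXCL10 read 3.94 and 4.86 with siRNA1 and 5.91 and 7.18 with siRNA2, against 7.14 and 7.54 with scramble. The siRNA2 replicate 2 array of CXCL10 reached the scramble level, and the change of -1.87 ± 0.33 (adjusted p = 0.00801) was lost without scramble replicate 2 (adjusted p = 0.0684). IFNB1, the gene of interferon beta, read 4.80 and 4.64 with siRNA1 and 4.98 and 4.54 with siRNA2, against 6.22 and 7.02 with scramble, a change of -1.88 ± 0.22 (adjusted p = 0.000943) with all 4 PARK2 siRNA arrays close together.

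Upstream sequences of called members of this list, the interferon list and both lipid lists were read from RefSeq promoters on GRCh38.p14. Of 31 such genes 24 had a promoter in the table, and CCL2, CSF1, TRIM22, OASL, ACAT2, SQLE and FASN had none there. The NF-kB motif was spelled GGGRNNYYCC, where R is A or G, Y is C or T and N is any base. Searched on both strands over 250 bases before to 50 after the start site, it occurred in 6 of the 9 chemokine and cytokine promoters of genes that fell (CXCL11, IFNB1, CXCL3, CXCL10, CCL20 and CXCL2), and in 10.8% of 27305 promoters of that length. The ISRE core, spelled GAAA, any 2 bases and GAAA again, to which interferon-activated factors bind, occurred in 2 of the 9 (CXCL10 and IL24) and in 3.65% of all promoters. Of the other motifs searched, CCAAT occurred in 5 of the 9 and in 35.7% of all promoters, and the E-box CACGTG in 0 and in 7.43%. Of the 4 promoters of interferon-stimulated genes that fell, 2 held the ISRE core, 1 the NF-kB motif, 1 CCAAT and 1 the E-box. A match describes letters and not a bound site. Promoters of chemokine genes that did not fall were not counted, so whether these shares are particular to genes that fell was not tested. The 250 bases before the start site of 5 genes that fell are given, since they hold the shared motifs, with NF-kB motifs and ISRE cores in capitals. They lie at chr4:76023498-76023747 on the minus strand (CXCL10), chr4:76036071-76036320 on the minus strand (CXCL11), chr9:21077943-21078192 on the minus strand (IFNB1), chr4:74038690-74038939 on the minus strand (CXCL3) and chr15:88638766-88639015 on the plus strand (ISG20).
CXCL10: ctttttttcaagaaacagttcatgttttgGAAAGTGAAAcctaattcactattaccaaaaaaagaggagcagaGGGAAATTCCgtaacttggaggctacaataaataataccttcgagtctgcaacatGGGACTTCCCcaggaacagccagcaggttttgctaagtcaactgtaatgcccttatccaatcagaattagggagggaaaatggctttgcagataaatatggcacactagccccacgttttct
CXCL11: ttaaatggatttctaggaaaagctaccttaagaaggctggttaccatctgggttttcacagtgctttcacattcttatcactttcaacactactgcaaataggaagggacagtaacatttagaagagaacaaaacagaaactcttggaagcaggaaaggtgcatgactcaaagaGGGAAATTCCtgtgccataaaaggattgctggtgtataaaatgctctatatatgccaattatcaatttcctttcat
IFNB1: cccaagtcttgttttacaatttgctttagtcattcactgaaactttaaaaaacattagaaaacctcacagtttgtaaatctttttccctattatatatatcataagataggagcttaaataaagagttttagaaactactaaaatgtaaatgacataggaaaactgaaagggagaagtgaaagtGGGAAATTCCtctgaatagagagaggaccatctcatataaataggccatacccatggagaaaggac
CXCL3: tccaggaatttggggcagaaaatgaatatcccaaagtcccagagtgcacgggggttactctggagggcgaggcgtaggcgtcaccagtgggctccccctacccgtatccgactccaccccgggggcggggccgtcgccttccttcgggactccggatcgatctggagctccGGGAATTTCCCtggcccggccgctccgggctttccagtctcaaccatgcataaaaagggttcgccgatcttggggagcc
ISG20: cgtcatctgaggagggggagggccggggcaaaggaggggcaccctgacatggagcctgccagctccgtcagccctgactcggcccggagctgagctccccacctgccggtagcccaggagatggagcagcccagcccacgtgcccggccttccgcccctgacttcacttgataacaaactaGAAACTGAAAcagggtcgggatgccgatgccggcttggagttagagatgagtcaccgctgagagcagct
CXCL10, CXCL11 and IFNB1 held the same 10 letters, GGGAAATTCC, at 177, 76 and 66 bases before the start site. CXCL10 also held GGGACTTCCC at 122 bases and the ISRE core GAAAGTGAAA at 221 bases before it, and ISG20 the ISRE core GAAACTGAAA at 69 bases. In CXCL3 the motif matched both strands in 2 overlapping positions.

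**Figure D2:**
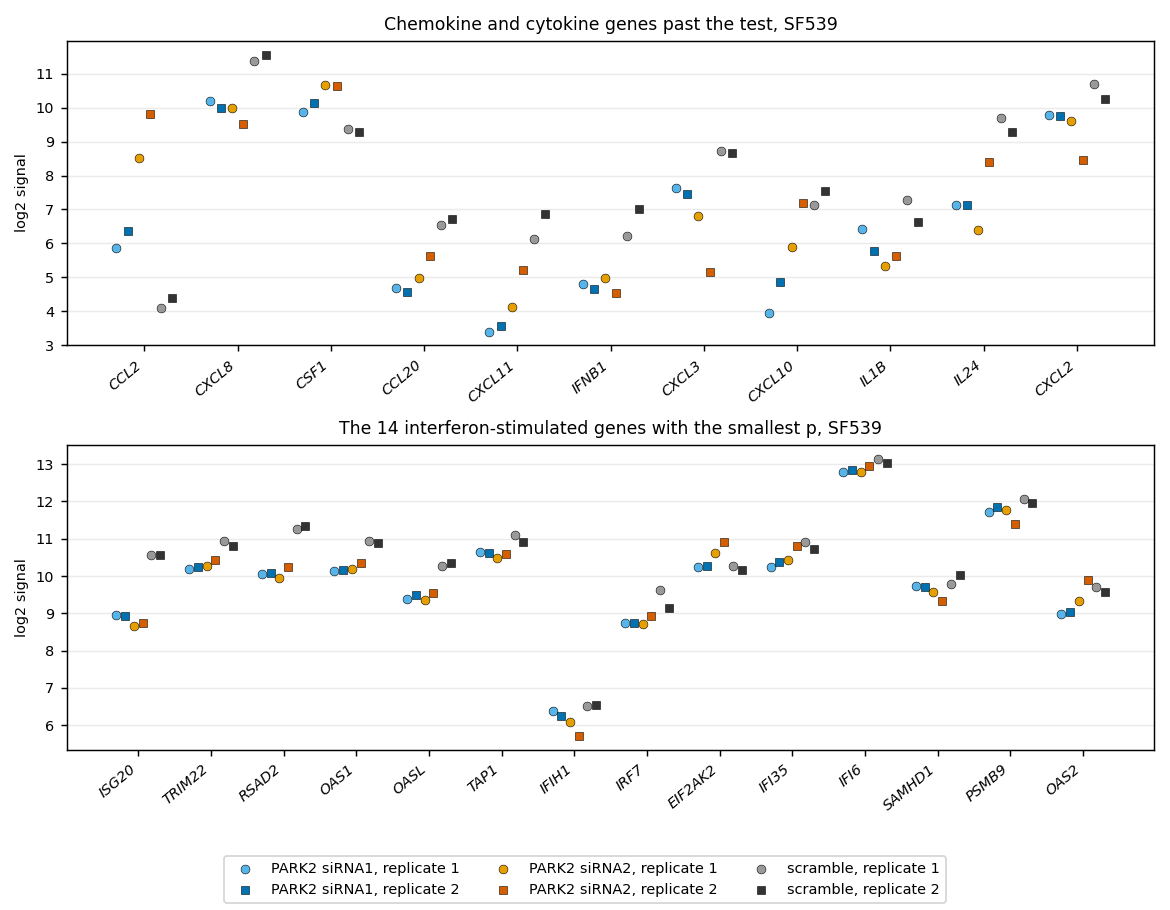
Log2 signal on each SF539 array of the 11 called chemokine and cytokine genes (top) and of the 14 interferon-stimulated genes with the smallest p (bottom), PARK2 siRNA arrays left of scramble arrays for each gene. CXCL11, CXCL10, CCL20 and IL24 are closer to scramble on siRNA2 replicate 2 than on the siRNA1 arrays, while CXCL3, CXCL2 and CXCL8 are farthest from scramble on it.

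Interferon-stimulated genes encode antiviral enzymes and antigen-processing proteins. Of 27 measured, 6 fell in SF539 (ISG20, TRIM22, RSAD2, OAS1, OASL and TAP1) and 0 rose (1 higher at an unadjusted limma p under 0.05). Of all genes 4.01% were called lower and 5.8% higher. The list's median change was -0.24, against -0.02 over all genes. ISG20, an exonuclease that degrades viral RNA, read 8.97 and 8.92 with siRNA1 and 8.65 and 8.73 with siRNA2, against 10.57 and 10.57 with scramble, with both scramble arrays alike and all 4 PARK2 siRNA arrays below them, a change of -1.75 ± 0.06 (limma adjusted p = 1.77e-06). RSAD2, which makes the antiviral nucleotide ddhCTP, read 10.05 and 10.07 with siRNA1 and 9.94 and 10.24 with siRNA2, against 11.25 and 11.34 with scramble, a change of -1.22 ± 0.17 (adjusted p = 0.00233). TRIM22, an antiviral ubiquitin ligase, read 10.19 and 10.25 with siRNA1 and 10.27 and 10.44 with siRNA2, against 10.95 and 10.81 with scramble, a change of -0.59 ± 0.08 (adjusted p = 0.00179). In these 3 genes the PARK2 siRNA arrays did not overlap scramble. OAS1 and its relative OASL, which sense double-stranded RNA, changed by -0.70 and -0.86, and the peptide transporter gene TAP1 by -0.42. Without scramble replicate 1 the calls of OAS1, OASL and TAP1 were lost (adjusted p = 0.0508, 0.0805 and 0.158). OASL was also lost without scramble replicate 2 (0.0917), and TAP1 without siRNA1 replicate 1 or 2 (0.0518 and 0.0591). Between 3 and 10 members fell when 1 array was left out, the fewest without scramble replicate 1 and the most without siRNA2 replicate 2, and 5 fell with the 6 SF539 arrays alone.

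Of the 27 genes, 2 had a change above 0. All 4 PARK2 siRNA arrays lay below both scramble arrays for 14 of the 27, against 14.5% of all genes. At an unadjusted limma p under 0.05, 13 of the 27 were lower, the called genes included. Of all genes 25.1% passed that limit in either direction. IFI6, MX1 and IFIT3 differed from each other in level more than between the groups. IFI6 read 12.79 and 12.85 with siRNA1 and 12.79 and 12.96 with siRNA2, against 13.14 and 13.02 with scramble (adjusted p = 0.0992), MX1 read 12.44 and 12.42 with siRNA1 and 12.45 and 12.78 with siRNA2, against 12.63 and 12.50 with scramble (adjusted p = 0.876), and IFIT3 read 4.70 and 4.65 with siRNA1 and 4.76 and 4.64 with siRNA2, against 4.62 and 4.55 with scramble. IFI6 and MX1 were therefore bright on every SF539 array and IFIT3 dim on every one. In SNB19 the median change of the same 27 genes was -5.00. The difference between the lines passed for each of the 4 members with the smallest p in SF539: ISG20 (-1.75 in SF539, -4.19 in SNB19, adjusted p = 1.19e-07), TRIM22 (-0.59 and -2.66, 1.21e-06), RSAD2 (-1.22 and -6.19, 5.96e-07) and OAS1 (-0.70 and -6.34, 2.3e-08). Of 19 NF-kB response genes 2 rose, VCAM1 and CD83 (by 0.39), and 1 fell, the adaptor kinase gene RIPK2, by 0.31 (-0.20 over its probe sets on average). The RIPK2 call was lost without either scramble array (adjusted p = 0.118 and 0.075) or either siRNA1 array (0.0613 and 0.0591).

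Some extracellular matrix genes rose with the PARK2 siRNAs, collagen genes most. Of 31 measured, 7 rose (COL3A1, FBLN1, COL1A2, FBN2, COL1A1, LUM and COL5A1) and 0 fell (1 lower at an unadjusted limma p under 0.05). Of all genes 5.8% were called higher and 4.01% lower. The list's median change was 0.52, against -0.02 over all genes (0.27 without siRNA2 replicate 2). COL3A1, a chain of the fibrillar collagen of soft tissue, read 10.85 and 11.21 with siRNA1 and 12.39 and 13.40 with siRNA2, against 9.70 and 9.70 with scramble, a change of 2.26 ± 0.26 (limma adjusted p = 0.000859). Its 4 probe sets ran from 0.03 to 3.12, and their mean changed by 1.99. COL1A2, a chain of type I collagen, read 11.42 and 11.64 with siRNA1 and 12.02 and 13.47 with siRNA2, against 10.27 and 10.12 with scramble, a change of 1.95 ± 0.30 (adjusted p = 0.00384). COL1A1, its partner chain, read 8.52 and 8.58 with siRNA1 and 9.03 and 11.05 with siRNA2, against 7.33 and 6.96 with scramble, and its change of 2.15 ± 0.41 (1.34 as the mean of probe sets that differ in sign) was lost without scramble replicate 1 or 2 (adjusted p = 0.0551 and 0.0836). In all 3 collagen genes the siRNA2 replicate 2 array was the highest and the scramble arrays were the lowest. FBLN1, a glycoprotein of elastic fibres and basement membranes, rose by 0.72 (0.34 over its probe sets on average). FBN2, a microfibril protein, rose by 0.57, a call lost without scramble replicate 2 (adjusted p = 0.0591). LUM and COL5A1, which encode a collagen-binding proteoglycan and a chain of type V collagen, rose by 0.98 and 0.95, and each call was lost without any 1 scramble or siRNA1 array, with adjusted p from 0.0772 to 0.202 for LUM, whose arrays overlapped scramble, and from 0.0781 to 0.163 for COL5A1.

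Beyond the list, NID2, which links basement membrane networks, read 6.99 and 7.03 with siRNA1 and 7.49 and 9.06 with siRNA2, against 6.01 and 6.00 with scramble, and its rise of 1.64 ± 0.33 was lost without scramble replicate 1 or 2 (limma adjusted p = 0.0893 and 0.0793). MATN2, a matrix adaptor protein, read 5.57 and 5.49 with siRNA1 and 6.56 and 7.85 with siRNA2, against 3.67 and 4.27 with scramble, and rose by 2.40 ± 0.29. OLFML2B, a secreted olfactomedin-domain protein, read 8.44 and 8.68 with siRNA1 and 9.78 and 10.17 with siRNA2, against 7.25 and 6.88 with scramble, and rose by 2.20 ± 0.14. The PARK2 siRNA arrays of all 3 lay above scramble. The count of matrix genes that rose was 11 without siRNA2 replicate 2 and 23 without siRNA2 replicate 1, 4 and 3 without scramble replicate 1 or 2, and 1 with the 6 SF539 arrays alone. The matrix list also separated the siRNA2 replicates, with a median of 1.35 over scramble on replicate 2 and 0.33 on replicate 1.

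Matrix proteases, their inhibitors and adhesion genes moved both ways. Of 24 protease and inhibitor genes 3 rose (TIMP3, MMP2 and ADAM9) and 5 fell (SERPINE2, PLAUR, MMP1, CTSL and PLAU). Of all genes 5.8% were called higher and 4.01% lower. The list's median change was -0.05 and lay between -0.12 and 0.10 when 1 array was left out, above 0 without siRNA2 replicate 1 alone. TIMP3, a matrix-bound inhibitor of metalloproteinases, read 10.76 and 10.83 with siRNA1 and 12.07 and 12.78 with siRNA2, against 10.13 and 9.93 with scramble, a change of 1.58 ± 0.17 (limma adjusted p = 0.000583). MMP2, a type IV collagenase, rose by 1.29 ± 0.19. PLAUR, the urokinase receptor, and SERPINE2, an inhibitor of thrombin and urokinase, changed by -1.02 and -0.92, and PLAU, urokinase itself, by -0.33 (-0.78 over its probe sets on average, adjusted p = 0.0023). MMP1, the interstitial collagenase, read 6.13 and 5.57 with siRNA1 and 3.17 and 3.06 with siRNA2, against 5.47 and 5.78 with scramble. Its siRNA1 arrays were level with scramble and its siRNA2 arrays were below the lower quartile of an average array, so the average of -1.14 describes neither siRNA. Without siRNA2 replicate 1, 7 members of this list rose, without siRNA2 replicate 2, 8 fell, and without either scramble array or siRNA1 replicate 2, 3 fell. The calls of CTSL, PLAU and ADAM9 were lost without either scramble array (adjusted p from 0.0572 to 0.158) and without siRNA1 replicate 2, and those of PLAU and ADAM9 also without siRNA1 replicate 1. With the 6 SF539 arrays alone 1 rose and 3 fell.

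Of 25 integrin and adhesion genes 5 rose and 2 fell, where 5.8% of all genes were called higher and 4.01% lower. The list's median change was 0.15, and it was 0.0015 without siRNA2 replicate 2, 0.26 without siRNA2 replicate 1 and 0.09 without siRNA1 replicate 2. CDH11, a mesenchymal cadherin, read 8.92 and 9.01 with siRNA1 and 9.68 and 10.13 with siRNA2, against 8.16 and 8.25 with scramble, and rose by 1.23 ± 0.11 (limma adjusted p = 0.000281). L1CAM, a neural adhesion molecule, read 8.39 and 8.50 with siRNA1 and 9.28 and 10.23 with siRNA2, against 7.44 and 7.76 with scramble, and rose by 1.5 ± 0.21 (0.80 over its probe sets on average). ITGA2, the collagen-binding integrin chain, read 7.95 and 7.90 with siRNA1 and 7.12 and 6.89 with siRNA2, against 8.28 and 8.68 with scramble, and fell by 1.01 ± 0.13, while ITGA4 rose by 0.44. Neither L1CAM nor ITGA2 overlapped scramble. The count of rises in this list was 12 without siRNA2 replicate 1, 3 without either scramble array and 2 with the 6 SF539 arrays alone. Falls numbered 5 without siRNA2 replicate 2, and 1 without either scramble or either siRNA1 array. NRP2 and ITGAV, the other members that rose, and CD44, which fell, were lost without either scramble array (adjusted p from 0.0506 to 0.188), and ITGAV and CD44 also without either siRNA1 array.

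Secreted Wnt-linked genes were among the larger changes. Of 20 Wnt pathway and target genes 4 rose (FZD2, CCN4, CCN5 and TCF7L2) and 3 fell (DKK1, BAMBI and CCND1), with a median change of 0.19 (0.10 without siRNA2 replicate 2 and 0.11 without scramble replicate 1). CCN4, a matricellular protein first found as a Wnt-induced gene, read 6.20 and 6.45 with siRNA1 and 7.17 and 8.77 with siRNA2, against 4.58 and 4.83 with scramble, a change of 2.44 ± 0.33 (limma adjusted p = 0.00225; 1.35 as the mean of its probe sets). CCN5, its relative, read 4.65 and 4.72 with siRNA1 and 6.12 and 7.50 with siRNA2, against 4.24 and 4.12 with scramble, so the siRNA1 arrays exceeded scramble by little, and its rise of 1.57 was lost without scramble replicate 1 or 2 (adjusted p = 0.0585 and 0.0651). DKK1, a secreted Wnt antagonist, read 8.54 and 8.47 with siRNA1 and 7.59 and 7.96 with siRNA2, against 9.41 and 9.45 with scramble, a change of -1.29 ± 0.10 (adjusted p = 0.000135). FZD2, a Wnt receptor, read 10.21 and 10.34 with siRNA1 and 10.23 and 10.40 with siRNA2, against 9.61 and 9.41 with scramble, and rose by 0.79 ± 0.09. The 2 siRNAs gave nearly the same FZD2 level. TCF7L2, a transcription factor of the pathway, rose by 0.48, a call lost without scramble replicate 1 or 2 (adjusted p = 0.0848 and 0.0529). Rises numbered 2 without scramble replicate 1 or 2 and 7 without siRNA2 replicate 1. Against 5.8% of all genes called higher and 4.01% lower, 1 of 26 TGF-beta pathway and target genes rose and 2 fell. TGFBI rose by 0.51, and BAMBI, a decoy receptor, and INHBA, an activin subunit, changed by -0.71 and -0.79 (-0.44 over the INHBA probe sets on average). That list counted 6 rises and 4 falls without siRNA2 replicate 2, 8 and 4 without siRNA2 replicate 1, and 3 rises without scramble replicate 2.

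Part of the lipid synthesis genes rose. Of 19 genes of cholesterol synthesis and uptake 8 rose (ACAT2, IDI1, DHCR7, LSS, MSMO1, INSIG1, HMGCS1 and SQLE) and 0 fell (1 lower at an unadjusted limma p under 0.05), with a median change of 0.30. Of 16 fatty acid synthesis genes 6 rose (SCD, SREBF1, ACACA, FADS2, ME1 and FASN) and 0 fell (2 lower at an unadjusted limma p under 0.05), with a median of 0.24, both medians beside -0.02 over all genes. Of all genes 5.8% were called higher and 4.01% lower. SCD, the desaturase that makes oleate, read 9.19 and 9.58 with siRNA1 and 10.71 and 11.48 with siRNA2, against 8.29 and 8.07 with scramble, a change of 2.06 ± 0.19 (limma adjusted p = 0.000281; 1.52 as the mean of its probe sets). SREBF1, the transcription factor that drives fatty acid genes, read 6.37 and 6.67 with siRNA1 and 7.37 and 7.81 with siRNA2, against 5.65 and 5.70 with scramble, a change of 1.38 ± 0.14 (adjusted p = 0.000443). DHCR7, the last enzyme of cholesterol synthesis, read 7.33 and 7.46 with siRNA1 and 7.94 and 8.79 with siRNA2, against 6.47 and 6.52 with scramble, a change of 1.38 ± 0.19 (adjusted p = 0.00225). All 3 were above scramble on every PARK2 siRNA array and higher with siRNA2 than with siRNA1.

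INSIG1, the sterol-sensing brake on SREBP processing, read 10.98 and 11.07 with siRNA1 and 11.87 and 12.42 with siRNA2, against 10.70 and 10.70 with scramble, a change of 0.88 ± 0.14 (limma adjusted p = 0.00469). ACACA, the rate-limiting carboxylase of fatty acid synthesis, rose by 0.71 ± 0.07, IDI1 by 0.55 and ACAT2 by 0.56. LSS, lanosterol synthase, rose by 0.71 on its brightest probe set, but the mean of its probe sets was 0.26 (adjusted p = 0.17). FADS2, a polyunsaturated fatty acid desaturase, rose by 1.17, a call lost without scramble replicate 2 (adjusted p = 0.0883). HMGCS1 and SQLE were also lost without that array (0.0893 and 0.0989). ME1 was lost without scramble replicate 1 (0.162) or siRNA1 replicate 2 (0.0551), and FASN, fatty acid synthase itself, without any 1 scramble or siRNA1 array (0.0782 to 0.208). Without 1 array, 6 to 12 cholesterol genes and 4 to 9 fatty acid genes rose, the most of each without siRNA2 replicate 1, the fewest of the first without scramble replicate 2 and of the second without either scramble array or siRNA1 replicate 2. The counts were 4 and 3 with the 6 SF539 arrays alone. Of 6 cholesterol and 5 fatty acid promoters in the table, 5 and 1 held CCAAT, 2 and 0 the E-box CACGTG, 0 and 2 the NF-kB motif, and 0 and 0 the ISRE core, against 35.7%, 7.43%, 10.8% and 3.65% of all promoters.

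Hypoxia-induced genes, many of them targets of HIF-1, had average changes of 1 sign in SF539. All 18 measured had an average change above 0, as had 3999 of all 8545 genes. All 4 PARK2 siRNA arrays lay above both scramble arrays for 10 of the 18, against 13.7% of all genes. Of the 18, 6 passed (DDIT4, BNIP3, SLC2A1, ADM, STC1 and P4HA1), where 5.8% of all genes were called higher. The median was 0.39, against -0.02 over all genes, with 0.19 without siRNA2 replicate 2 and 0.59 without siRNA2 replicate 1. DDIT4, an inhibitor of mTORC1, read 10.95 and 11.14 with siRNA1 and 11.60 and 12.16 with siRNA2, against 10.02 and 9.75 with scramble, a change of 1.58 ± 0.15 (limma adjusted p = 0.000303). ADM, the gene of the vasodilator adrenomedullin, read 12.45 and 12.52 with siRNA1 and 12.74 and 12.72 with siRNA2, against 11.80 and 11.63 with scramble, a change of 0.89 ± 0.09. SLC2A1, the main glucose transporter, read 9.50 and 9.61 with siRNA1 and 9.71 and 9.89 with siRNA2, against 8.89 and 8.77 with scramble, a change of 0.85 ± 0.08. Each of these had all 4 PARK2 siRNA arrays above scramble, with siRNA1 between scramble and siRNA2. BNIP3, a mitophagy receptor induced by low oxygen, rose by 0.77 ± 0.07 and STC1 by 0.65. P4HA1, a prolyl hydroxylase of collagen, rose by 0.69, a call lost without any 1 scramble or siRNA1 array (adjusted p from 0.0599 to 0.123). The count was 15 without siRNA2 replicate 1, 6 without siRNA2 replicate 2 and 4 with the 6 SF539 arrays alone. Of 20 glycolysis genes 2 rose, HK2 by 0.58 and LDHA by 0.29, and both were lost without scramble replicate 1 (adjusted p = 0.0711 and 0.0831); LDHA was also lost without scramble replicate 2 (0.12) and without siRNA1 replicate 1 or 2 (0.0744 and 0.0554).

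**Figure D3:**
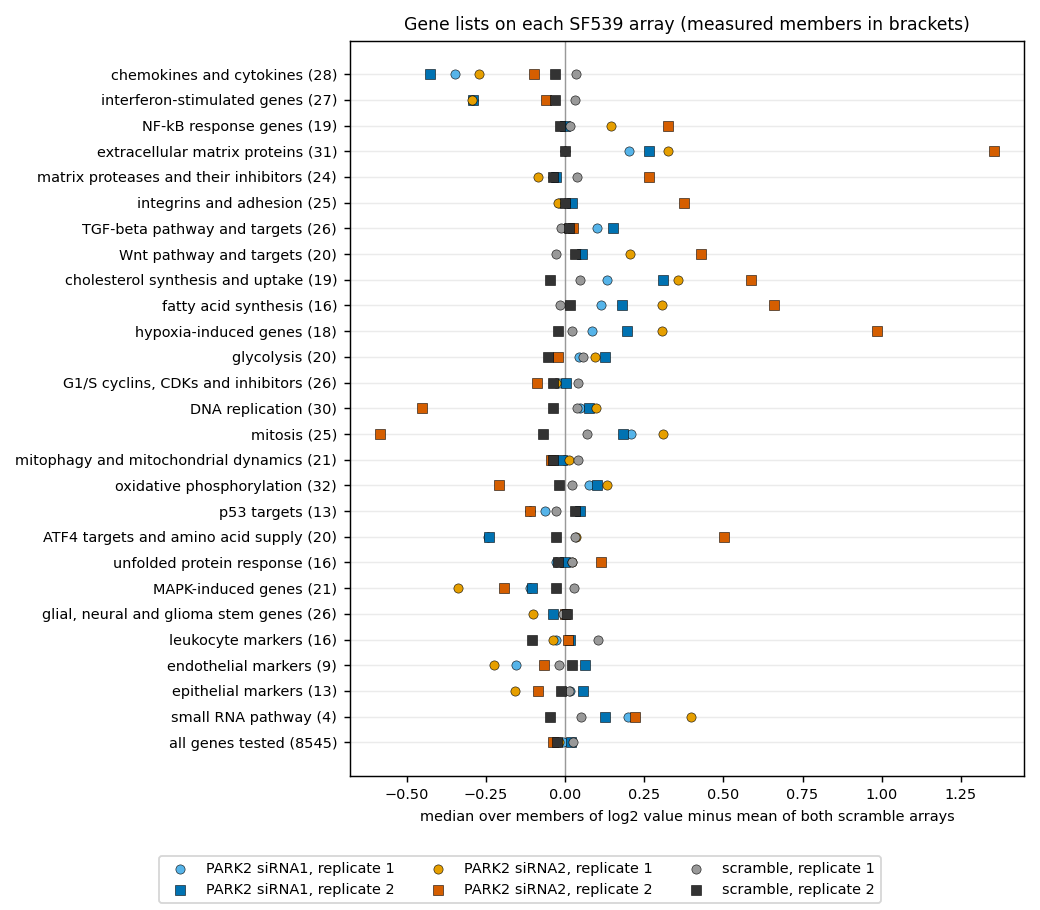
Median over the measured members of each gene list of the log2 value minus the mean of both scramble arrays, for each SF539 array, with all genes in the lowest row. Matrix, hypoxia and both lipid lists sit right of 0 on all 4 PARK2 siRNA arrays, and on siRNA2 replicate 2 (dark orange squares) the matrix list reaches 1.35 while the mitosis list lies at -0.58.

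Cell cycle genes differed more between the siRNA2 replicates than between the groups. Of 25 mitosis genes 0 passed in either direction (0 higher and 1 lower at an unadjusted limma p under 0.05), yet all 25 were lower on siRNA2 replicate 2 than on replicate 1, by 0.28 to 1.11, and 24 of them were lowest there of all 6 arrays, which held for 29.3% of all genes. The mitosis median over scramble was 0.21 and 0.18 on the siRNA1 arrays, 0.31 on siRNA2 replicate 1 and -0.58 on siRNA2 replicate 2. Without siRNA2 replicate 2, 11 mitosis genes were called higher and 0 lower, and without siRNA2 replicate 1, 0 were higher and 9 lower. The direction of the mitosis list therefore turned with the siRNA2 array that was kept. DNA replication genes did likewise, with 29 of 30 lower on replicate 2, 1 rise (MCM6, by 0.51), 6 rises and 1 fall without replicate 2, and 1 rise and 12 falls without replicate 1. The MCM6 call was lost without scramble replicate 1 or 2 (adjusted p = 0.0545 and 0.0869).

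Parkin has been linked to G1/S cyclins, and 26 genes of cyclins, CDKs and their inhibitors were examined. The median change was -0.08 (-0.0032 with scramble replicate 1 left out and -0.03 with siRNA2 replicate 2 left out), with 3 members higher (CDKN1C, RBL2 and CDKN1B) and 3 lower (CCND1, CDKN1A and CDKN2D). Of all genes 5.8% were called higher and 4.01% lower. CCND1, cyclin D1, read 9.87 and 9.83 with siRNA1 and 9.14 and 8.39 with siRNA2, against 10.36 and 10.43 with scramble, a change of -1.09 ± 0.17 (limma adjusted p = 0.00381) that was larger with siRNA2. With the 6 SF539 arrays alone the CCND1 call was lost (adjusted p = 0.0578), and of the 26 genes 1 rose and 0 fell. CDKN1C, which encodes the CDK inhibitor p57, read 8.47 and 8.76 with siRNA1 and 8.97 and 9.67 with siRNA2, against 7.75 and 7.66 with scramble, a change of 1.26 ± 0.20 (adjusted p = 0.00422). CDKN1A, which encodes p21, read 8.22 and 8.21 with siRNA1 and 8.49 and 9.03 with siRNA2, against 9.15 and 9.13 with scramble, and its change of -0.65 was lost without scramble replicate 1 or 2 (adjusted p = 0.0875 and 0.0687). RBL2, a pocket protein, rose by 0.42, a call lost without scramble replicate 2 (adjusted p = 0.0568) and with the mean of its probe sets (0.26, adjusted p = 0.199). CDKN1B and CDKN2D, the genes of the CDK inhibitors p27 and p19, changed by 0.25 and -0.86 (-0.34 over the CDKN2D probe sets on average), and each call was lost without any 1 scramble or siRNA1 array, with adjusted p from 0.0728 to 0.175 over both genes. Without scramble replicate 2, 1 member rose and 1 fell, and without siRNA2 replicate 2, 5 rose.

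Mitophagy genes, among which parkin acts, had a small median change. Of 21 measured, BNIP3 rose and 2 fell, where 5.8% of all genes were called higher and 4.01% lower. The median change was -0.06. It ran between -0.15 (scramble replicate 2 left out) and -0.0012 (scramble replicate 1 left out), and reached -0.0098 when siRNA2 replicate 2 was dropped. PINK1, the kinase that activates parkin, read 8.81 and 8.72 with siRNA1 and 8.31 and 7.87 with siRNA2, against 8.96 and 8.79 with scramble, so the siRNA1 arrays overlapped scramble and the siRNA2 arrays were lower. MAP1LC3B, which encodes the autophagosome protein LC3B, read 9.75 and 9.81 with siRNA1 and 9.83 and 10.05 with siRNA2, against 10.25 and 10.19 with scramble. The changes of PINK1 (-0.45, limma adjusted p = 0.0437) and MAP1LC3B (-0.36, 0.0256) were each lost without any 1 scramble or siRNA1 array (adjusted p between 0.0844 and 0.257 over the scramble arrays). OPA1, a mitochondrial fusion GTPase and the next by p, changed by 0.19 ± 0.07 (adjusted p = 0.116). Of 32 oxidative phosphorylation genes 0 passed (2 higher and 0 lower at an unadjusted limma p under 0.05). All 32 were lower on siRNA2 replicate 2 than on replicate 1, by 0.07 to 0.55. On replicate 2, 25 of them lay below the other 5 arrays, as did 29.3% of all genes.

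The remaining lists held 0 to 4 calls each, where 5.8% of all genes were called higher and 4.01% lower. Of 13 p53 targets CCNG1 rose by 0.59 and CDKN1A fell, and GADD45A fell by 0.39. Of 20 ATF4 targets the amino acid transporter gene SLC7A5 rose by 0.35, and the tRNA synthetase gene WARS1 and the stress factor gene DDIT3 changed by -0.51 and -0.29. Of 21 MAPK-induced genes 4 fell, CCND1, IER2 (-0.40), DUSP4 (-0.45) and HBEGF (-0.69), with a median change of -0.26. All 4 PARK2 siRNA arrays lay below both scramble arrays for 11 of the 21, against 14.5% of all genes. At an unadjusted limma p under 0.05, 12 of the 21 were lower and 1 higher. With the 6 SF539 arrays alone 0 of the 21 were called. Of 26 glial, neural and stem genes the gap junction gene GJA1 rose by 0.97 ± 0.11, and SOX9 and CD44 changed by -0.52 and -0.31 (-0.64 over the CD44 probe sets on average). Of 16 unfolded protein response genes and 4 small RNA pathway genes 0 passed (2 higher and 0 lower in each at an unadjusted limma p under 0.05). Among these genes GJA1 and CCND1 kept their calls without each array in turn. Without scramble replicate 1 the calls of WARS1, IER2 and SOX9 were lost (adjusted p = 0.0804, 0.125 and 0.102), and without scramble replicate 2 that of CCNG1 (0.0905). Those of GADD45A, SLC7A5, DDIT3, DUSP4, HBEGF and CD44 were lost without either scramble array, with adjusted p from 0.0729 to 0.204, and without siRNA1 replicate 2.

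The siRNA2 replicates also differed in genes that were not called for both siRNAs together. Replicate 2 was far above the other 5 arrays for TAGLN, a smooth muscle actin-binding protein, which read 3.95 and 3.93 with siRNA1 and 4.08 and 8.98 with siRNA2, against 3.66 and 4.27 with scramble. CHI3L1, a secreted chitinase-like glycoprotein and glioma marker, read 6.30 and 6.53 with siRNA1 and 7.24 and 12.04 with siRNA2, against 6.38 and 6.53 with scramble. POSTN, the matrix protein periostin, read 3.74 and 4.47 with siRNA1 and 5.18 and 9.73 with siRNA2, against 3.45 and 3.56 with scramble. In these 3 genes the replicates of 1 group differed by more than 4. The largest change averaged over both siRNAs was 3.40, that of CCL2. The limma adjusted p of TAGLN, CHI3L1 and POSTN were 0.48, 0.349 and 0.157. EFEMP1, a fibulin of the matrix, read 5.12 and 4.81 with siRNA1 and 4.68 and 8.68 with siRNA2, against 3.81 and 3.62 with scramble. IGFBP5, a binding protein of insulin-like growth factors, read 3.43 and 3.87 with siRNA1 and 4.55 and 8.49 with siRNA2, against 3.50 and 3.36 with scramble, and EPYC, a cartilage proteoglycan, 2.76 and 2.79 with siRNA1 and 2.85 and 6.06 with siRNA2, against 2.76 and 2.78 with scramble. They had the next largest gaps between the siRNA2 replicates. Without siRNA2 replicate 2, the changes of POSTN, EFEMP1 and IGFBP5 were 1.14, 1.10 and 0.67 (adjusted p = 0.0127, 0.000495 and 0.0133). Matrix genes shared the pattern, 27 of 31 being higher on replicate 2 and 22 the highest of all 6 arrays, against 23.8% of all genes, and 16 of 18 hypoxia-induced genes were also highest there.

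**Figure D4:**
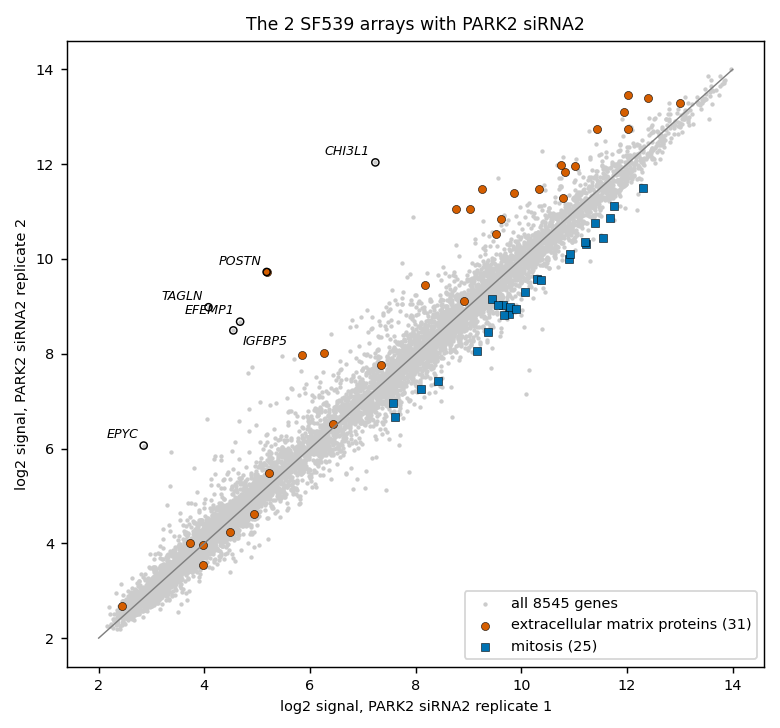
Log2 signal of each gene on the 2 SF539 siRNA2 arrays, replicate 2 against replicate 1, with the line of equality. Matrix genes (orange) lie mostly above the line and all 25 mitosis genes (blue) below it, and the 6 named genes have the largest gaps between the replicates.

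Each siRNA was also tested on its own. Against the same 2 scramble arrays, siRNA1 gave 233 calls (2.73%), 138 higher (1.61%) and 95 lower (1.11%), and siRNA2 gave 1295 (15.2%), 740 higher (8.66%) and 555 lower (6.5%). With siRNA2 replicate 2 left out, the shared estimate no longer holds the spread of the siRNA2 pair. Whether this moved the counts of either siRNA was not tested. With the 6 SF539 arrays alone, siRNA1 gave 1 call and siRNA2 308. Of the 839 genes called for both siRNAs together, 835 had the same sign with each and 680 a larger change with siRNA2. All 20 leading rises were larger with siRNA2. Of the 20 leading falls 13 were larger with siRNA2 and 7 with siRNA1, and the 7 were CXCL11, IL24, IFNB1, CXCL10, CCL20, FST and HMOX1.

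The lines share no control arrays, so whether a change differed between SF539 and SNB19 was tested directly. The difference passed for 1629 genes (19.1% of 8545), 920 higher (10.8%) and 709 lower (8.3%), and for 406 of the 839 SF539 calls (48.4%). SNB19 gave 2806 calls (32.8%, 15.5% higher and 17.4% lower), of which 373 were also called in SF539 in the same direction, 44.5% of the SF539 calls and 13.3% of the SNB19 calls, and 104 in the opposite direction, 12.4% and 3.71%. Of the 40 leading SF539 genes, 17 of 20 rises and 14 of 20 falls passed the test of the difference. Among these falls ESM1, IL24, CCL20, BCL2A1 and KRT33A averaged 2.95, 3.86, 3.65, 3.09 and 3.82 in SNB19 with scramble, below the lower quartile of an average array (3.98). The size of any fall in that line is therefore bounded by background. CCL2 rose in both lines, by 3.40 in SF539 and 3.11 in SNB19 as averages of both siRNAs, and the difference was 0.29 ± 0.41 (limma adjusted p = 0.678). In SF539 the rise was 1.87 with siRNA1 and 4.93 with siRNA2, so the average describes neither siRNA. In SNB19 CCL2 averaged 9.16 with siRNA1 and 9.57 with siRNA2, against 6.25 with scramble. CXCL8, CXCL11 and IFNB1 fell in both lines, with changes in SF539 and SNB19 of -1.55 and -1.41, -2.41 and -2.51, and -1.88 and -1.39, and their differences of -0.14 ± 0.20, 0.10 ± 0.39 and -0.49 ± 0.32 did not pass.

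ESM1 changed by -3.04 in SF539 and 0.04 in SNB19 (difference -3.07 ± 0.39, limma adjusted p = 0.000562). In SNB19 ESM1 averaged 3.12 and 2.86 with siRNA1 and siRNA2 and 2.95 with scramble, near background in every group, so this difference carries that limit. COL3A1 changed by 2.26 and -0.09 (difference 2.35 ± 0.37, adjusted p = 0.00209). In SNB19 COL3A1 averaged 3.34 and 3.38 with siRNA1 and siRNA2 and 3.45 with scramble, also near background in every group. Hypoxia-linked and lipid genes included opposite changes. DDIT4 rose by 1.58 in SF539 and changed by -1.54 in SNB19 (adjusted p of the difference = 6.2e-06), ADM by 0.89 and -2.59 (1.09e-07), BNIP3 by 0.77 and -0.90 (3.36e-06), and SLC2A1 by 0.85 and -0.86 (8.82e-06). SREBF1 rose by 1.38 in SF539 and changed by -1.30 in SNB19 (1.34e-05), and CSF1 by 1.01 and -0.87 (2.34e-05). The median change of the 18 hypoxia-induced genes was 0.39 in SF539 and -0.93 in SNB19. With median-centred arrays the difference between the lines had a median of -0.18 over all genes, against -0.01 as deposited, and 27.6% of its calls were higher, against 56.5%. The gene differences beside it are larger than that shift of the median.

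**Figure D5:**
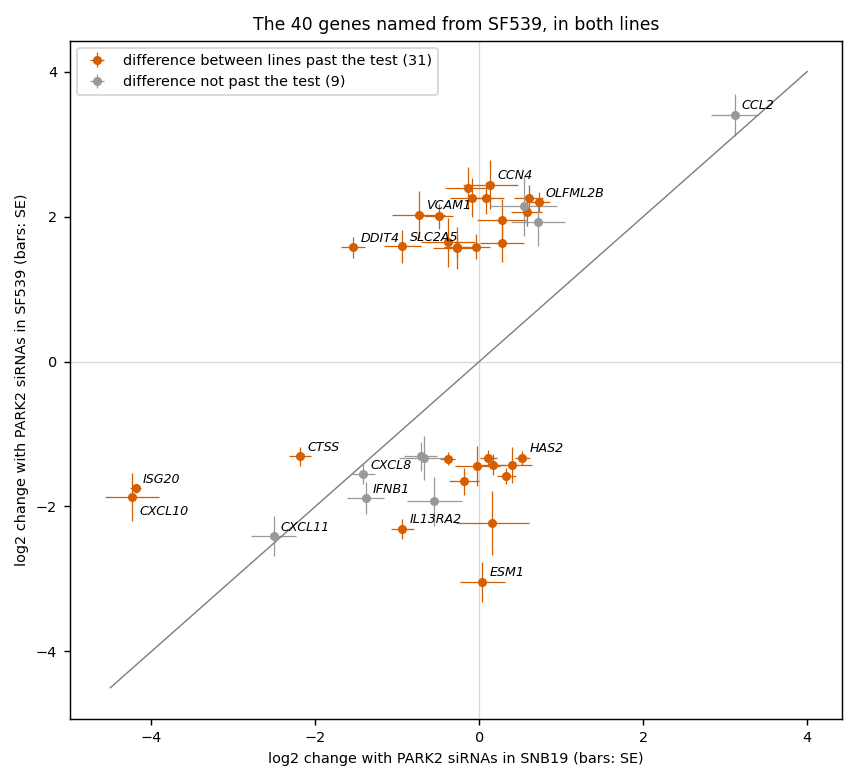
Log2 change with the PARK2 siRNAs in SF539 (vertical) against SNB19 (horizontal) for the 40 leading SF539 genes, with SE bars and the line of equality. The 31 orange genes passed the test of the difference between the lines, and CCL2, CXCL11, CXCL8 and IFNB1 lie near the line of equality.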

How the data were processed

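The deposited values are log2 expression values per probe set. Per the submitters' processing notes the software was Partek. How background was corrected, arrays normalized and probes summarised is not given in the sources used here, and the values carry no detection call. Of 16376 probe sets 14038 had 1 gene in the platform table, 792 several and 1546 none. Symbols of 14028 were updated through Entrez identifiers, and the brightest probe set of each gene over all arrays was kept, giving 8545 genes, 3361 of them with several probe sets.

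All 12 arrays, in 6 groups, entered 1 fit in limma 3.58.1 (R 4.3.3; lmFit, contrasts.fit and eBayes). It had 6 residual degrees of freedom and 3.65 of the prior. Tests were two-sided, and p-values were adjusted over all genes by Benjamini and Hochberg and called at 0.05. The PARK2 effect is the average of siRNA1 and siRNA2 less scramble, and errors of changes are standard errors of the fit. Only 2 arrays per group limit the precision. The 26 gene lists (534 measured genes) and the comparisons were chosen with earlier results of these data known, and lists are described by counts and medians, with no test of a list. Named genes are the called genes that both siRNAs moved one way, the 20 that rose most and the 20 that fell most, up to 4 members of each list by smallest p (called or not for the interferon, G1/S and mitophagy lists) and the 6 genes with the largest gap between the siRNA2 replicates. IL1B, CXCL2, OASL, TAP1, MMP2, PLAU, INSIG1, STC1, IFI6, MX1 and IFIT3, and other list members given by name to complete a count, were chosen after their values were seen. Dim genes have changes bounded by background.

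The fit was tested on simulated data for 8545 genes. For both siRNAs against scramble, 70.1% of 67 simulated 1.5-fold changes were recovered. For 2-fold changes the share was 89.6% of 67 and for 4-fold changes 100% of 66, and 7 of 180 calls were false. The simulated noise was independent, with 1 SD per gene that was the same on all 12 arrays. In the data the siRNA2 pair varied more, with a median SD of 0.132, against 0.0636 for siRNA1. These shares therefore hold for equal spread and do not give the rates for the real siRNA2 arrays. Alternatives were the 6 SF539 arrays alone, a replicate block, quantile normalization or median centring, leaving out the dimmest 40% of genes, averaging the probe sets of a gene or testing each alone, array weights, a trended and robust prior, a minimum change of 1.5-fold, and dropping each SF539 array in turn. The 6 SF539 arrays with array weights, and counts per list under other settings, were added after seeing the data. Plots used matplotlib 3.10.9.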

Additional observations from a re-analysis of the deposited data

Results flagged for a closer look

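These 31 of the 40 leading SF539 genes were picked out because their change with the PARK2 siRNAs differed between SF539 and SNB19, by limma's test of the difference with adjustment over all genes. Values are the log2 change in SF539 minus that in SNB19, and the SNB19 change enters each of them. The 17 rises that were larger in SF539 were those of CCN4 (2.31), MATN2 (2.53), COL3A1 (2.35), DAPK1 (1.65), GPR183 (2.18), OLFML2B (1.48), SCD (1.48), VCAM1 (2.76), TMT1A (2.50), COL1A2 (1.67), NID2 (2.02), TNFRSF9 (1.36), SLC2A5 (2.53), TIMP3 (1.63), SHROOM2 (1.86), DDIT4 (3.11) and CCN5 (1.84). Of these DDIT4 and SLC2A5 were called lower in SNB19, with changes of -1.54 and -0.94. The adjusted p of these genes ran from 6.2e-06 (DDIT4) to 0.0339 (TNFRSF9). Among them CCN4, COL3A1 and GPR183 averaged 3.44, 3.45 and 3.27 in SNB19 with scramble. These levels are below the lower quartile of an average array (3.98), and both siRNAs left the SNB19 averages of CCN4, COL3A1 and GPR183 below it.

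Falls that were larger in SF539 were those of ESM1 (-3.07), IL13RA2 (-1.37), IL24 (-2.39), CCL20 (-1.47), MN1 (-1.91), BCL2A1 (-1.41), SLC22A4 (-1.82), KRT33A (-1.59), PLXNA2 (-0.96), NAV3 (-1.44) and HAS2 (-1.85). In SNB19 with scramble ESM1, IL24, CCL20, BCL2A1 and KRT33A averaged 2.95, 3.86, 3.65, 3.09 and 3.82, below the lower quartile of an average array (3.98). The size of any fall there is bounded by background, and these 5 differences carry that limit. HAS2, which fell in SF539, was called higher in SNB19 by 0.53. Against these, CXCL10 (2.36), ISG20 (2.44) and CTSS (0.88) fell less in SF539 than in SNB19, where they changed by -4.23, -4.19 and -2.19. CXCL10 stood at 5.91 and 7.18 on the SF539 siRNA2 arrays, the second of which was level with scramble. Its part in the difference was not tested.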

How the results depend on the processing

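Counts of called genes moved with the arrays and the threshold more than with the scaling. For both siRNAs together (839) the count was 165 with the 6 SF539 arrays alone, 294 with those arrays and array weights (a setting chosen after seeing the data), 1330 for every probe set and 39 with a 1.5-fold minimum, and 371 to 1973 when 1 array was left out. For siRNA1 (233) it was 1 with the 6 SF539 arrays alone, 485 with array weights on all arrays and 1 with a 1.5-fold minimum, and 16 to 802 without 1 array. For siRNA2 (1295) it was 308 with the 6 arrays alone, 160 with array weights on them, 350 with array weights on all arrays, 1947 for every probe set and 96 with a 1.5-fold minimum, and 615 to 2593 without 1 array. For the difference between the lines (1629) it was 265 with a 1.5-fold minimum and 1229 to 2686 without 1 array. Group weights were 1.48 for siRNA1, 0.254 for siRNA2 and 0.822 for scramble. When an siRNA2 array is left out, the spread of that pair leaves the estimate, and the lone array is assumed to vary like the other groups. Causes of the shifts in these counts were not tested.

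The replicate numbers do not pair the samples: deviations of same-numbered arrays correlated with r = -0.18 between siRNA1 and scramble, 0.02 between siRNA2 and scramble and 0.05 between siRNA1 and siRNA2. With a replicate block the counts were 648 for both siRNAs, 135 for siRNA1, 1062 for siRNA2 and 1426 for the difference between the lines. Of the 40 leading genes 27 were called with the 6 SF539 arrays alone and 30 in each fit that left out 1 array, and the called genes named in the report reversed direction in none of the alternatives that give 1 value per gene. Single probe sets of DAPK1 (-0.05), TMT1A (-0.29), COL1A1 (-0.22), FBLN1 (-0.18), LSS (-0.09), NRP2 (-0.36), NAV3 (0.15) and CDKN2D (0.18) had the opposite sign, and 1 of ME1 lay just below 0. Median centring turned the share of higher calls from 59.2% to 45.1% for siRNA1 and from 57.1% to 44.8% for siRNA2. Of the called genes named, RIPK2, LSS, RBL2, PINK1, COL5A1, NRP2, FASN and CDKN2D lost their calls when the probe sets of a gene were averaged (limma adjusted p from 0.0522 to 0.391).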
